A study of Mus musculus with 4 samples.

Results

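The Ifitm genes encode small interferon-induced transmembrane proteins. The family here is the 5 mouse genes Ifitm1, Ifitm2, Ifitm3, Ifitm6 and Ifitm10, chosen by name, matched to NCBI Gene numbers and found among the 17723 genes listed in any of 4 RNA-seq libraries. Natural killer (NK) cells, lymphocytes that kill infected and malignant cells, had been sorted from the spleen of C57BL/6J mice of 6 to 8 weeks by DNAM-1 (Cd226), an activating receptor for ligands on tumour cells. The 4 groups, with 1 library each, were DNAM-1+ and DNAM-1- NK cells from spleen at day 17 after transfer of GFP+ MLL-AF9 acute myeloid leukaemia (AML) cells into unirradiated mice, and DNAM-1+ and DNAM-1- NK cells from spleen at day 0, which the labels call normal although the protocol speaks of leukaemia mice at both times. The design sets the subsets against each other in each spleen, and the AML against the normal spleen in each subset. The labels give no sort gates beyond NK cell and DNAM-1, and no number of mice behind a library.

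IFITM proteins sit in the plasma membrane and in endosomes, where they hinder the fusion of enveloped viruses with the cell. Interferons induce most of the family, and myeloid cells and lymphocytes are known to express several members. Ifitm3 is the best studied member and restricts influenza virus. Ifitm1 was first known in humans as a surface antigen of lymphocytes, CD225. In mouse, Ifitm5, Ifitm2, Ifitm1, Ifitm3 and Ifitm6 lie in this order in a cluster on chromosome 7, with a pseudogene and a long noncoding RNA gene between Ifitm1 and Ifitm3. Ifitm10 lies on the same chromosome outside the cluster.

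The start regions of the 3 members that were more than 2-fold lower in DNAM-1+ than in DNAM-1- cells are shown for the letters that interferon-activated factors are known to bind. Each sequence runs from 150 bases before to 30 bases after the RefSeq transcript start (assembly GRCm38.p6), and capitals mark matches on either strand to 2 motifs, the interferon-stimulated response element, searched as GAAA, any 2 bases and GAAA again, and the gamma-activated site, searched as TTCNNNGAA.
Ifitm3, chr7:141010715-141010894, minus strand: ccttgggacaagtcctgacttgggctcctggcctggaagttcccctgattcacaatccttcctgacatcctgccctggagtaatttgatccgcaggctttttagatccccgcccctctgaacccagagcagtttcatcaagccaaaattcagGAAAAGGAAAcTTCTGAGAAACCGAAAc
Ifitm2, chr7:140955932-140956111, minus strand: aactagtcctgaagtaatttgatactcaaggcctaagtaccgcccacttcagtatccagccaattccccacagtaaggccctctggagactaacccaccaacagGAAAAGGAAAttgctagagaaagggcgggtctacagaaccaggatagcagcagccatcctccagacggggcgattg
Ifitm6, chr7:141016863-141017042, minus strand: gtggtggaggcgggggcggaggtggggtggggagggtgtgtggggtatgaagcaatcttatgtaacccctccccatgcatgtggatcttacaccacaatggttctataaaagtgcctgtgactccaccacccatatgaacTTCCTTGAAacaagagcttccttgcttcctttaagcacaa
Ifitm3 held 2 matches to the response element, starting at positions 3 and 20 of the transcript, and 1 match to TTCNNNGAA starting at position 14, which overlaps the second response element match. Ifitm2 held 1 match to the response element at position -46, counted back from the start, with the same letters as the first Ifitm3 match. The run caggaaaaggaaa, 13 bases long, was the longest that the Ifitm2 and Ifitm3 windows shared. Ifitm6 held 1 match to TTCNNNGAA at position -10 and none to the response element. The single window of Ifitm1 and the 3 windows of Ifitm10 held neither. Among all 32851 RefSeq start windows of 300 bases, 3.44% held the response element and 8.3% held TTCNNNGAA. A match is a run of letters and not a measured binding site.

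All levels are the deposited FPKM, a per-length unit, and a gene that a file does not list was taken as 0. Log2 ratios were taken after 1 FPKM had been added to each value, so a low gene's ratio is drawn towards 0. A gene was compared where its higher library reached 5 FPKM, and was counted at a log2 ratio of at least 1 either way. With 1 library a group no difference has a replicate check and none was tested, and the family was chosen with these values known, so that each value describes these libraries. The sort showed in Cd226, at 36.1 FPKM in DNAM-1+ and 0.58 FPKM in DNAM-1- cells of AML spleen, and at 38.6 FPKM in DNAM-1+ and 0.45 FPKM in DNAM-1- cells of normal spleen. Ncr1 and Klrb1c, which encode NK receptors, lay between 318 and 597 FPKM in the 4 libraries. Each library held an estimated 8900000 to 9400000 fragments, read from the size of the steps between low microRNA values.

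The 4 cluster genes were lower in DNAM-1+ than in DNAM-1- cells of both spleens, and Ifitm10 was not. Ifitm3, Ifitm2 and Ifitm6 were past 2-fold in both spleens, that is 3 of the 4 members that reached 5 FPKM in each. Of all genes compared, 3.19% in AML spleen and 3.97% in normal spleen were lower by 2-fold or more in DNAM-1+ cells. Because these contrasts helped to choose the family, nothing is read from the count against these shares.

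Ifitm3 (NCBI Gene 66141) was at 13.8 FPKM in DNAM-1+ and 88.8 FPKM in DNAM-1- cells of AML spleen, and at 14.3 FPKM in DNAM-1+ and 174 FPKM in DNAM-1- cells of normal spleen. Both DNAM-1+ libraries lay close together and far below both DNAM-1- libraries, which differed from each other. The log2 ratio of DNAM-1+ over DNAM-1- cells was -2.60 in AML and -3.51 in normal spleen. Of 8915 genes compared in normal spleen 1 had a lower ratio, and of 8839 in AML spleen 17 did. As plain ratios of FPKM these were 0.156 in AML spleen, with a 95% counting interval of 0.121 to 0.196, and 0.0822 in normal spleen, with an interval of 0.0651 to 0.102. Such intervals are exact binomial ones on fragments estimated from depth and transcript length, and leave out any variation between mice, since they reflect counting error alone.

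Ifitm2 (80876), the closest neighbour of Ifitm3 in profile within the family, was at 11.4 FPKM in DNAM-1+ and 68.8 FPKM in DNAM-1- cells of AML spleen, and at 7.64 FPKM in DNAM-1+ and 85.5 FPKM in DNAM-1- cells of normal spleen. Its log2 ratios were -2.49 in AML and -3.32 in normal spleen. Ifitm6 (213002) was at 2.14 FPKM in DNAM-1+ and 11.9 FPKM in DNAM-1- cells of AML spleen, and at 2.54 FPKM in DNAM-1+ and 20.4 FPKM in DNAM-1- cells of normal spleen. Its log2 ratios were -2.04 in AML and -2.60 in normal spleen, on about 13 and 15 fragments in the DNAM-1+ libraries. For both genes the 2 DNAM-1+ libraries lay below the 2 DNAM-1- libraries.

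Ifitm1 (68713) did not reach 5 FPKM in any library. It was at 1.17 FPKM in DNAM-1+ and 3.68 FPKM in DNAM-1- cells of AML spleen, and at 0.9 FPKM in DNAM-1+ and 4.7 FPKM in DNAM-1- cells of normal spleen. It followed the direction of the other cluster genes on about 8 and 6 fragments in the DNAM-1+ libraries. Its plain ratio of DNAM-1+ over DNAM-1- cells was 0.318 in AML spleen, with a counting interval of 0.129 to 0.771, and 0.191 in normal spleen, with an interval of 0.0665 to 0.48. Ifitm5, known from bone, was listed in no library, and Ifitm7, a family gene on another chromosome, stayed between 0.39 and 1.08 FPKM.

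Ifitm10 (320802), whose function is little known, was at 15.5 FPKM in DNAM-1+ and 13.2 FPKM in DNAM-1- cells of AML spleen, and at 13.2 FPKM in DNAM-1+ and 10.5 FPKM in DNAM-1- cells of normal spleen. Its 4 values lay within a narrow band, and its log2 ratios were 0.22 in AML and 0.31 in normal spleen. The counting interval of its plain ratio spanned 1 in both, at 0.934 to 1.5 in AML and 0.966 to 1.63 in normal spleen. In DNAM-1+ cells it was the member with the highest FPKM in AML spleen, with 35.2% of the summed FPKM of the 5 members, and it made up 34.3% in normal spleen. In DNAM-1- cells it made up 7.08% in AML and 3.56% in normal spleen, where Ifitm3 made up 47.6% and 58.9%.

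**Figure D1:**
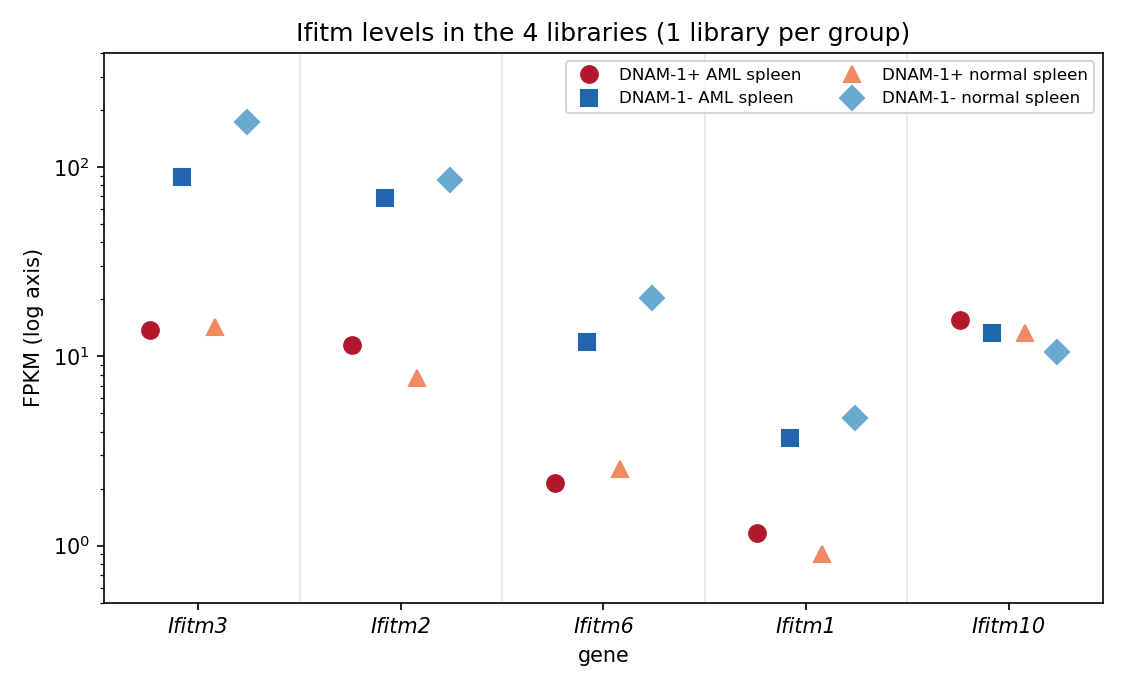
FPKM (log axis) of each Ifitm gene, with 1 point for each of the 4 libraries. Ifitm3, Ifitm2, Ifitm6 and Ifitm1 are lower in both DNAM-1+ libraries than in both DNAM-1- libraries, while the Ifitm10 values lie between 10.5 and 15.5 FPKM.

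**Figure D2:**
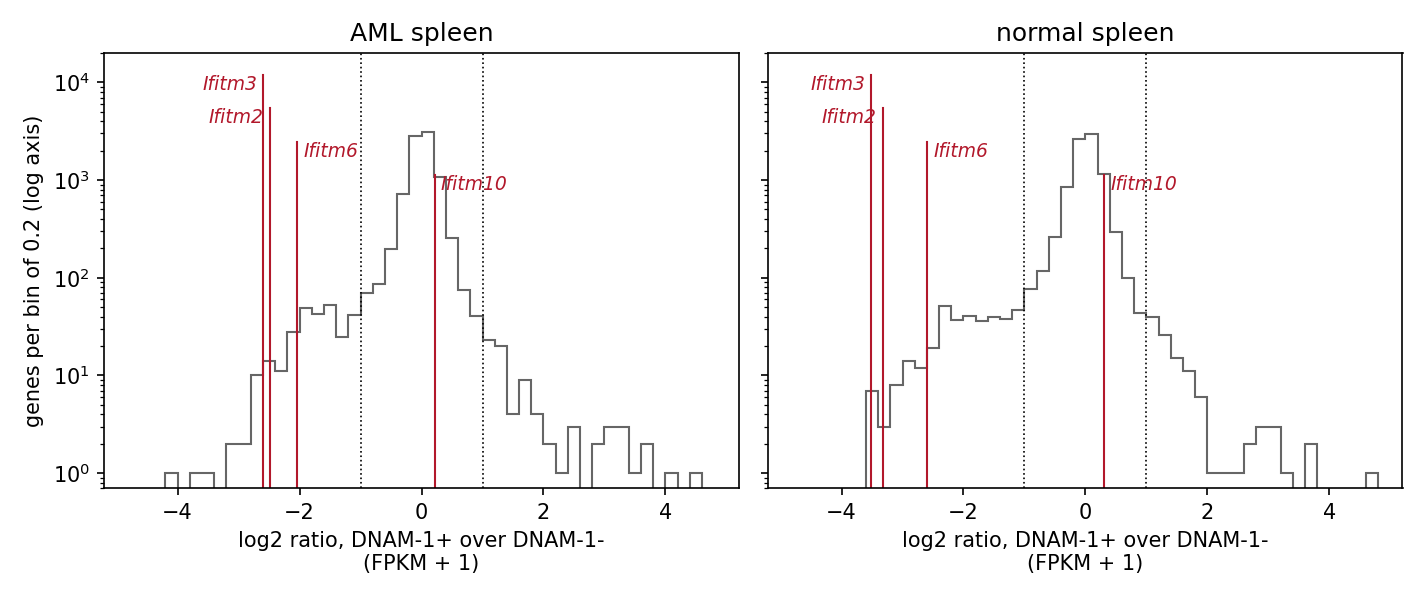
Outline histograms of the log2 ratio of DNAM-1+ over DNAM-1- cells for all genes compared in AML spleen (8839 genes) and normal spleen (8915 genes), with gene number on a log axis, dotted lines at a 2-fold difference and red lines at the members that reached 5 FPKM. Ifitm3, Ifitm2 and Ifitm6 stand in the lower tail of both and Ifitm10 in the bulk.

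Close paralogs can share reads. The submitters' notes name Bowtie2 and RSEM but do not describe how shared reads were divided, and the annotation used is not given. In the GENCODE M21 transcripts, 20 of the 606 different stretches of 50 bases in Ifitm2 also occur in Ifitm3, and 48.5% occur in some other gene. Apart from Ifitm3, those other genes are predicted genes and processed pseudogenes that the deposited files do not list. The share was 10% for Ifitm3, 5.02% for Ifitm1, 3.51% for Ifitm10 and 0% for Ifitm6. The summed FPKM of Ifitm1, Ifitm2 and Ifitm3 was 26.4 in DNAM-1+ cells against 161 in DNAM-1- cells of AML spleen, and 22.8 in DNAM-1+ cells against 264 in DNAM-1- cells of normal spleen. The log2 ratio of this sum was -2.56 in AML and -3.47 in normal spleen. A sum of FPKM changes only a little with the division of reads among these 3 genes. Their median coding transcripts are of similar length, at 736 nt for Ifitm1, 655 nt for Ifitm2 and 678 nt for Ifitm3. The part of reads shared with other genes was not tested.

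Between the spleens, Ifitm3, Ifitm6 and, by less, Ifitm2 were lower in the AML library of DNAM-1- cells. Ifitm2 was higher in the AML library of DNAM-1+ cells. All of these differences were less than 2-fold. In DNAM-1- cells the log2 ratio of AML over normal spleen was -0.96 for Ifitm3, -0.73 for Ifitm6, -0.31 for Ifitm2, -0.28 for Ifitm1 and 0.30 for Ifitm10. None of the 4 members compared passed 2-fold, while 0.397% of the 8808 genes compared were lower by 2-fold or more and 0.193% were higher by as much. For Ifitm3 the plain ratio was 0.511, with a counting interval of 0.459 to 0.569, and 35 of the 8808 genes had a lower log2 ratio. For Ifitm2 it was 0.804, with an interval of 0.701 to 0.922 on about 383 fragments in the AML and 471 in the normal library. In DNAM-1+ cells the log2 ratio of AML over normal spleen was -0.04 for Ifitm3, -0.17 for Ifitm6, 0.52 for Ifitm2, 0.19 for Ifitm1 and 0.22 for Ifitm10. Of the 3 members compared here (Ifitm6 and Ifitm1 were under 5 FPKM) none passed 2-fold, beside 0.311% of 8682 genes that were higher by 2-fold or more and 0.346% that were lower by as much. The plain ratio of Ifitm2 was 1.49, with a counting interval of 1.01 to 2.25 that rests on about 66 fragments in the AML and 44 in the normal library, and 8582 of the 8682 genes had a lower log2 ratio. Since a sorted library averages over its cells, fewer cells with a transcript and less of it per cell cannot be told apart.

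The DNAM-1 log2 ratio was therefore nearer 0 in AML than in normal spleen for the 4 cluster genes. The AML ratio minus the normal ratio was 0.92 for Ifitm3, 0.83 for Ifitm2, 0.55 for Ifitm6, 0.48 for Ifitm1 and -0.09 for Ifitm10. This difference of differences has no residual degrees of freedom and was not tested. The direction was not particular to the family. Of the cell type marker lists given below with negative medians, the non-classical monocyte median was -2.76 in AML and -2.94 in normal spleen. The B cell median was -1.96 in AML and -2.135 in normal spleen. The median was -1.235 in AML and -1.54 in normal spleen for classical monocytes, and -0.97 in AML and -1.32 in normal spleen for macrophages. The plasma cell median was -1.81 in AML and -2.23 in normal spleen. The neutrophil median went the other way, at -0.82 in AML and -0.72 in normal spleen. So did the dendritic cell and erythroid medians, over 1 or 2 markers. Single markers varied, with Ear2 at -2.79 in AML and -3.47 in normal spleen, and Fcgr4 at -2.98 in AML and -3.03 in normal spleen. Jchain went the other way, at -3.435 in AML and -2.93 in normal spleen.

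The balance of Ifitm3 and Ifitm2 followed the spleen more than the subset. Ifitm3 stood at 1.21 times the FPKM of Ifitm2 in DNAM-1+ cells against 1.29 times in DNAM-1- cells of AML spleen, and at 1.87 times in DNAM-1+ cells against 2.03 times in DNAM-1- cells of normal spleen. The counting intervals were 1.13 to 1.48 in AML and 1.82 to 2.27 in normal spleen for DNAM-1- cells, which do not overlap. For DNAM-1+ cells they were 0.867 to 1.7 in AML and 1.3 to 2.78 in normal spleen, which do. The ratio of these genes would also move with the division of shared reads, which was not tested.

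Most interferon-stimulated genes outside the family were under 2-fold between the subsets. Of 35 other interferon-stimulated antiviral genes, 28 were compared in AML spleen, of which 0 were at least 2-fold higher and 3 lower in DNAM-1+ cells, with a median log2 ratio of -0.03. In normal spleen 31 were compared, with 0 higher, 4 lower and a median of -0.04. Of all genes, 0.894% in AML spleen and 1.28% in normal spleen were at least 2-fold higher, 3.19% in AML spleen and 3.97% in normal spleen were lower by as much, and the median log2 ratio was 0.01 in both. Oas2 and Oasl2, of the double-stranded RNA sensor family, were past 2-fold in both spleens. Oasl2 was at 1.74 FPKM in DNAM-1+ and 5.41 FPKM in DNAM-1- cells of AML spleen, and at 5.74 FPKM in DNAM-1+ and 16.1 FPKM in DNAM-1- cells of normal spleen. The interferon-inducible GTPases, which attack the vacuoles of intracellular pathogens, had medians of 0.25 in AML and 0.19 in normal spleen. Of 14 GTPase genes compared in each spleen 1, Tgtp1, was higher by 2-fold or more in DNAM-1+ cells and 0 were lower.

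Between the spleens the antiviral genes were lower in AML in both subsets. In DNAM-1+ cells 28 of 29 compared had a negative log2 ratio, 4 of them past 2-fold, and the median was -0.58. In DNAM-1- cells 30 of 30 were negative, 8 past 2-fold, and the median was -0.60. The medians of all genes were 0.01 in DNAM-1+ cells against 0.00 in DNAM-1- cells. Ifit3, of this list, was at 6.62 FPKM in AML and 21.1 FPKM in normal spleen in DNAM-1+ cells. In DNAM-1- cells it was at 7.35 FPKM in AML and 20.4 FPKM in normal spleen. Rtp4, Oasl1 and Oasl2 were past 2-fold in both subsets as well. The Ifitm3 values of DNAM-1+ cells, at 13.8 FPKM in AML and 14.3 FPKM in normal spleen, did not show such a difference. The GTPases had medians of -0.21 in DNAM-1+ cells against -0.20 in DNAM-1- cells, and 0 of 14 and 0 of 13 were past 2-fold.

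**Figure D3:**
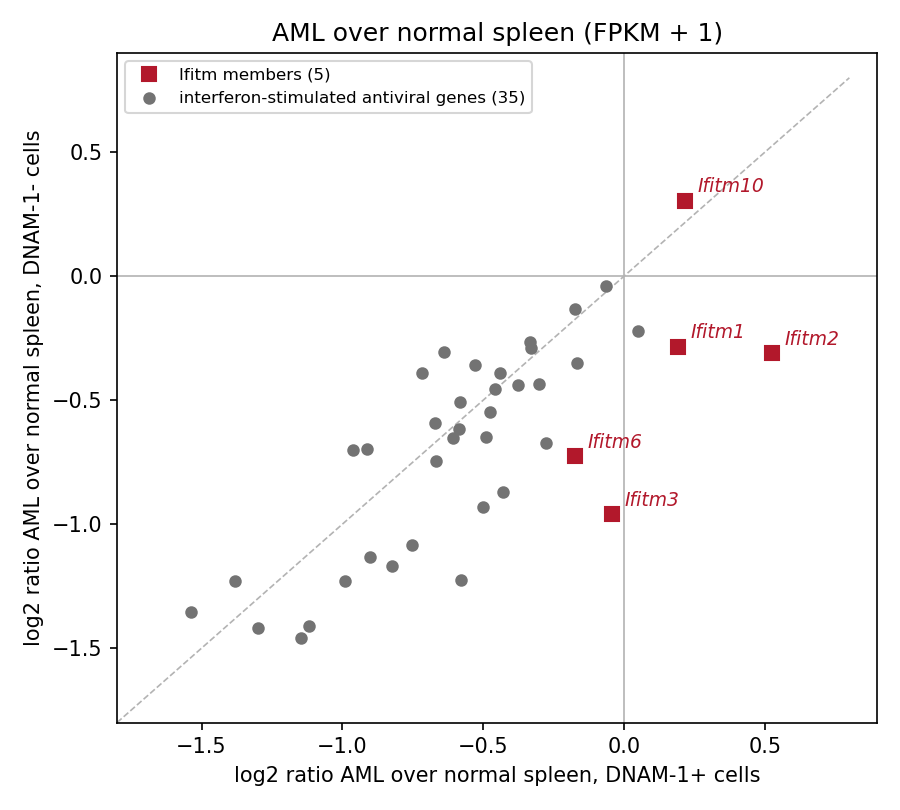
Log2 ratio of AML over normal spleen in DNAM-1+ cells (horizontal axis) and DNAM-1- cells (vertical axis) for the 5 Ifitm genes and 35 other interferon-stimulated antiviral genes, 1 point a gene, with a dashed line of equal ratios. Most antiviral genes lie below 0 on both axes, on either side of the line. Ifitm3, Ifitm6, Ifitm2 and Ifitm1 lie below the line, as many antiviral genes do, with ratios between -0.17 and 0.52 in DNAM-1+ cells.

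Most genes of the interferon pathway itself were under 2-fold between the subsets. Of 17 interferon receptor and signalling genes 1 was lower by 2-fold or more in DNAM-1+ cells of each spleen, Ifngr2, a chain of the interferon gamma receptor, and 0 were higher. Its log2 ratio was -1.54 in both spleens. Between the spleens 0 of 17 passed 2-fold in DNAM-1+ cells. In DNAM-1- cells 1 of 17 did, Irf7, the amplifier of type I interferon transcription, at 40.7 FPKM in AML and 82.6 FPKM in normal spleen (named here because of its value). Of 10 interferon genes, Ifng was the only one at 5 FPKM or more, at 81.9 FPKM in DNAM-1+ and 70 FPKM in DNAM-1- cells of AML spleen, and at 64.2 FPKM in DNAM-1+ and 70.9 FPKM in DNAM-1- cells of normal spleen. The type I interferon gene Ifnb1 was listed in no library.

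Among genes whose products are known to associate with or modify IFITM proteins, most of it from human cells, the tetraspanin gene Cd81 was lower by more than 2-fold in DNAM-1+ cells of each spleen. Cd81 was at 2.88 FPKM in DNAM-1+ and 10.4 FPKM in DNAM-1- cells of AML spleen, and at 2.28 FPKM in DNAM-1+ and 11.8 FPKM in DNAM-1- cells of normal spleen. Between the spleens 0 of 15 such genes in DNAM-1+ and 0 of 16 in DNAM-1- cells passed 2-fold. Of 9 other genes with the CD225 domain of the family, 4 were listed in no library and 1, Prrt1, reached 5 FPKM. Its log2 ratio of DNAM-1+ over DNAM-1- cells was 1.10 in AML and 0.78 in normal spleen. Of 9 other virus restriction genes, of which Ly6e and Bst2 are also in the antiviral list, 0 passed 2-fold in any of the 4 comparisons. Ly6e, the most abundant of them, was at 302 FPKM in DNAM-1+ and 339 FPKM in DNAM-1- cells of AML spleen, and at 291 FPKM in DNAM-1+ and 395 FPKM in DNAM-1- cells of normal spleen.

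Markers of other blood cells moved with the Ifitm genes between the subsets. Of 8 non-classical monocyte markers, 6 in AML and 7 in normal spleen were lower by 2-fold or more in DNAM-1+ cells, with medians of -2.76 and -2.94. Their summed FPKM was 143 in DNAM-1+ cells against 335 in DNAM-1- cells of AML spleen, and 142 in DNAM-1+ cells against 363 in DNAM-1- cells of normal spleen. The most abundant, Pglyrp1, was even between the subsets. It was at 109 FPKM in DNAM-1+ and 103 FPKM in DNAM-1- cells of AML spleen. In normal spleen it was at 112 FPKM in DNAM-1+ and 92 FPKM in DNAM-1- cells. It made up most of the DNAM-1+ sums, so the sums differed less between the subsets than the next marker, Ace, did. Ace had log2 ratios of -3.00 in AML and -3.47 in normal spleen. Of 4 classical monocyte markers compared, 2 in each spleen were at least 2-fold lower, Lyz2 and Csf1r, while Ly6c2 and Ccr2, the others compared, were not. The summed FPKM of the list was 356 in DNAM-1+ cells against 598 in DNAM-1- cells of AML spleen, and 298 in DNAM-1+ cells against 564 in DNAM-1- cells of normal spleen. These sums include Ly6c2, at 188 FPKM in DNAM-1+ and 192 FPKM in DNAM-1- cells of AML spleen. In normal spleen Ly6c2 was at 137 FPKM in DNAM-1+ and 159 FPKM in DNAM-1- cells. With Ly6c2 and Ccr2 included, the sums differed less between the subsets than Lyz2 and Csf1r did. Macrophage markers were lower in 3 of 7 in AML and 9 of 9 in normal spleen, with sums of 45.7 in DNAM-1+ cells against 121 in DNAM-1- cells of AML spleen, and 44 in DNAM-1+ cells against 142 in DNAM-1- cells of normal spleen. No marker of these 3 lists was at 0 in any library.

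All 10 B cell markers were lower by 2-fold or more in DNAM-1+ cells of each spleen, with sums of 248 in DNAM-1+ cells against 1041 in DNAM-1- cells of AML spleen, and 224 in DNAM-1+ cells against 1081 in DNAM-1- cells of normal spleen. Of 4 plasma cell markers compared 3 were lower in each spleen, and Tnfrsf17 was at 0 in DNAM-1+ cells of normal spleen. T cell markers went the other way, with 3 of 5 in AML and 3 of 6 in normal spleen higher by 2-fold or more in DNAM-1+ cells. NK cell markers had 0 of 10 past 2-fold in any of the 4 comparisons. Neutrophil markers had 1 of 6 lower in AML and 0 of 6 in normal spleen, and dendritic cell markers 1 of 2 in AML and 0 of 1 in normal spleen. Of the progenitor markers Kit, which NK cells also express, was higher in both spleens. The single erythroid marker compared, Hba-a1, was not past 2-fold. The part of any of these cells in the Ifitm difference was not tested.

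Between the spleens the medians of the monocyte lists differed less than Ifitm3 in DNAM-1- cells and more than Ifitm3 in DNAM-1+ cells. In DNAM-1+ cells the median log2 ratio of AML over normal spleen was 0.29 for the 5 non-classical and 0.42 for the 4 classical monocyte markers compared. It was 0.50 for Lyz2 and 0.47 for Ear2, beside -0.04 for Ifitm3 and 0.52 for Ifitm2. The markers did not all rise, since 2 of the 5 non-classical ones were negative, Fcgr4 at -0.44 and Pglyrp1 at -0.04. Of the 4 classical ones 1 was negative, Ccr2 at -0.11. The macrophage median there was 0.00 over 4 markers. In DNAM-1- cells the median log2 ratio of AML over normal spleen was -0.21 for the non-classical monocyte, 0.02 for the classical monocyte and -0.27 for the macrophage list, and 0 of 8, 0 of 4 and 0 of 9 passed 2-fold. Lyz2, a lysozyme gene of monocytes and macrophages, was at 254 FPKM in AML and 239 FPKM in normal spleen in these cells, whereas Ifitm3 was at 88.8 FPKM in AML and 174 FPKM in normal spleen. Ifitm3 thus stood at 0.35 of Lyz2 in AML and 0.726 in normal spleen, and Ifitm2 at 0.271 in AML and 0.357 in normal spleen. Other markers were lower in AML spleen in DNAM-1- cells, so such a ratio depends on the marker chosen. The log2 ratio was -0.495 for Fcgr4 and -0.64 for C1qb, beside 0.09 for Lyz2. It was negative for 6 of 8 non-classical monocyte, 2 of 4 classical monocyte and 7 of 9 macrophage markers.

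**Figure D4:**
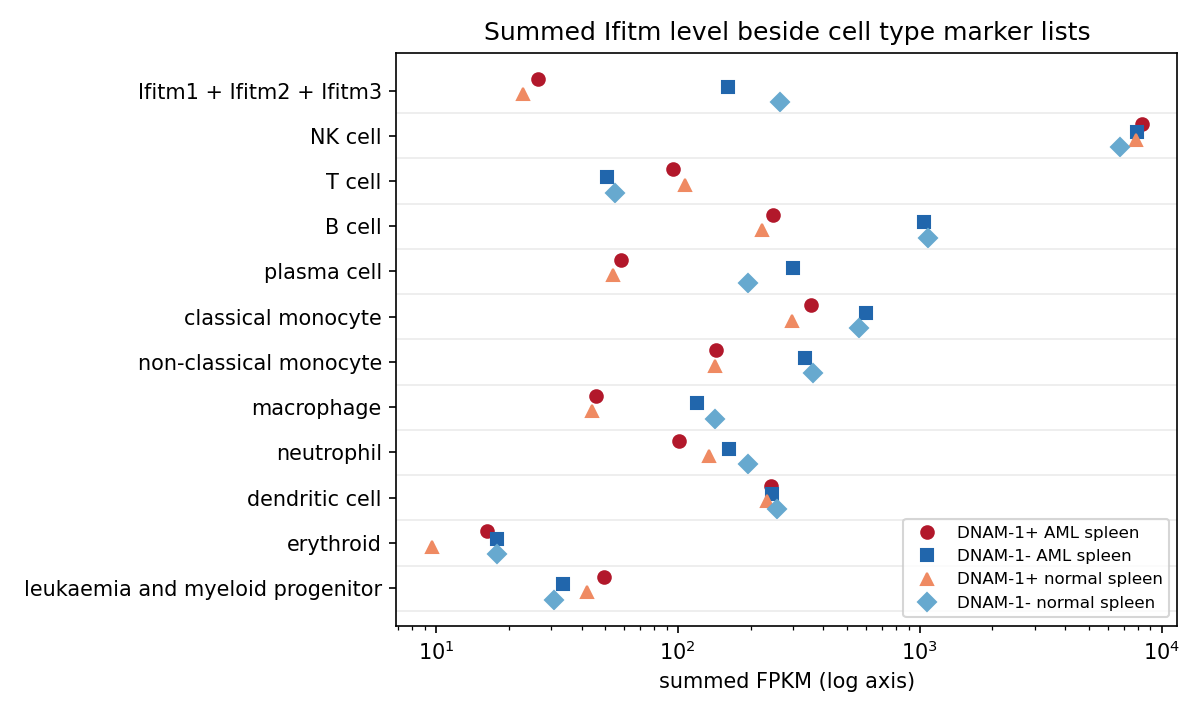
Summed FPKM (log axis) of Ifitm1, Ifitm2 and Ifitm3 and of 11 cell type marker lists, with 1 point for each of the 4 libraries. The Ifitm sum and the B cell, plasma cell, monocyte, macrophage, neutrophil, dendritic cell and erythroid sums are lower in both DNAM-1+ libraries than in both DNAM-1- libraries, the dendritic cell sums by little, and the T cell and progenitor sums are higher. Abundant markers weigh most in a sum, such as Pglyrp1, Ly6c2 and Itgax, which were under 2-fold between the subsets.

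The genes whose profiles lay nearest to those of the members were named by a fixed measure, the root mean square distance of log2 values centred on each gene's mean over the 4 libraries, among 8506 protein-coding genes. Nearest to Ifitm3 were Nupr1, a stress-response gene (distance 0.088), the Fc receptor gene Fcgr4 (0.219) and the apolipoprotein gene Apoe (0.258). Nupr1 was at 2.33 FPKM in DNAM-1+ and 22 FPKM in DNAM-1- cells of AML spleen, and at 2.48 FPKM in DNAM-1+ and 37.1 FPKM in DNAM-1- cells of normal spleen. It thus also had its lower DNAM-1- value in AML spleen and even DNAM-1+ values. Nearest to Ifitm2 were Apoc2 (0.0891), Ceacam1 (0.109) and the eosinophil-associated ribonuclease gene Ear2 (0.117), and Apoc2, Ear2 and Fcgr4 are in the non-classical monocyte list. Nearest to Ifitm6 were the haptoglobin gene Hp (0.0579), Pla2g7 (0.0654) and Igsf6 (0.128). Nearest to Ifitm10 were Aifm1 (0.0154), Ormdl1 (0.0201) and Ehd3 (0.0204). Within the family Ifitm2 and Ifitm3 lay 0.314 apart, Ifitm3 and Ifitm6 0.381, Ifitm2 and Ifitm6 0.41, and Ifitm3 and Ifitm10 1.72. With 4 libraries such nearness is a description.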

How the data were processed

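RNA was extracted from the sorted cells with a QIAGEN RNeasy kit and sequenced with BGISEQ-500 protocols, per the labels' protocols. The deposited values are FPKM per gene, per the file headers, with NCBI Gene numbers and only genes above 0. Bowtie2 2.2.5 and RSEM were used, per the submitters' processing notes, which do not say for what, and build and annotation are not given in the sources used here. Of 17723 gene numbers 17668 matched the RefSeq gene table of GRCm38.p6, used for names, biotypes and gene order. Log2 ratios, counts past 2-fold and distances were computed with Python 3.11.15, numpy 2.4.6, pandas 2.3.3 and scipy 1.17.1, and checked on simulated data.

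Depth was estimated as the fragment number, with a length offset of 36 to 37 bases, at which microRNA values of genes of 55 to 100 nt came nearest to whole multiples of 1 read. Between 90.3% and 93.9% of values of up to 6 reads lay within 0.1 read. Fragments of a member used the median length of its GENCODE M21 coding transcripts.

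The members, the lists and the rule for named genes (members, sort checks, the 3 nearest profiles, and list genes past 2-fold in both spleens or subsets or else the 2 most abundant) were chosen with earlier results of these data known, and genes that make up a count of 5 or fewer were named after their values were seen. Alternatives were pseudocounts of 0.1 and 5 FPKM, centring on the median gene, rescaling every library to one common sum, as in TPM, no floor and a floor of 20 FPKM. The counts between the subsets for the list of IFITM partners and modifiers are not reported here.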

Additional observations from a re-analysis of the deposited data

Results flagged for a closer look

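The comparison of the spleens singled out Ifitm2 and Ifitm1, whose AML over normal log2 ratios had opposite signs in the 2 subsets. For Ifitm2 the log2 ratio was 0.52 in DNAM-1+ cells against -0.31 in DNAM-1- cells, a difference of 0.83. For Ifitm1 it was 0.19 in DNAM-1+ cells against -0.28 in DNAM-1- cells, a difference of 0.48, on about 6 to 29 fragments a library. The counting interval of its plain ratio was 0.406 to 4.66 in DNAM-1+ and 0.433 to 1.4 in DNAM-1- cells. Both span 1, so counting error alone leaves neither sign fixed. Neither difference was tested, because each group is 1 library.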

How the results depend on the processing

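No member changed the sign of its log2 ratio in any comparison under any alternative. The count of members past 2-fold between the subsets, 3 in each spleen, became 4 in each with no floor or with each library's FPKM rescaled to one common sum, where Ifitm1 is admitted, and 2 in AML spleen with a floor of 20 FPKM, where Ifitm6 is left out. Between the spleens it stayed 0 in both subsets. Ifitm1 between the subsets moved to -0.49 in AML and -0.72 in normal spleen with a pseudocount of 5 FPKM, and to -2.26 in normal spleen with 0.1 FPKM. Ifitm6 moved to -1.25 in AML and -1.75 in normal spleen with a pseudocount of 5 FPKM. Counts over all genes, in the order AML spleen and normal spleen for DNAM-1+ over DNAM-1- cells, then DNAM-1+ and DNAM-1- cells for AML over normal spleen, were 361, 468, 57 and 52. They became 628, 806, 180 and 149 after rescaling, 613, 810, 210 and 192 with no floor, 130, 164, 6 and 10 with a floor of 20 FPKM, and 201, 286, 36 and 29 with a pseudocount of 5 FPKM. A higher or lower floor changes which genes are counted, and rescaling lifts low genes over the floor. The alternatives for the change of the DNAM-1 ratio between spleens were chosen after seeing the data. No paired analysis was possible because each group is 1 library without a replicate number, and for the same reason no library could be left out. Low levels limit Ifitm1 and Ifitm6 in DNAM-1+ cells, where few fragments lie behind each value.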

Other observations

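Set against single markers inside each library, Ifitm2 kept closer to the non-classical monocyte gene Ear2 than Ifitm3 did across the spleens. Ifitm2 stood at 1.89 times Ear2 in DNAM-1+ cells against 1.45 times in DNAM-1- cells of AML spleen, and at 1.87 times in DNAM-1+ cells against 1.55 times in DNAM-1- cells of normal spleen. Ifitm3 stood at 2.29 times Ear2 in DNAM-1+ cells against 1.87 times in DNAM-1- cells of AML spleen, and at 3.5 times in DNAM-1+ cells against 3.14 times in DNAM-1- cells of normal spleen. Against the B cell gene Cd79a, Ifitm3 stood at 0.157 in DNAM-1+ cells against 0.222 in DNAM-1- cells of AML spleen, and at 0.196 in DNAM-1+ cells against 0.44 in DNAM-1- cells of normal spleen. These pairs were chosen after their values were seen. Ear2 was also among the 3 genes nearest to Ifitm2 in profile over these same libraries, at a distance of 0.117. Its steady ratio to Ifitm2 is therefore not a separate observation. Fcgr4, of the same marker list, was instead among the 3 nearest to Ifitm3, at 0.219.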
